A study of Rattus norvegicus with 6 samples.

Results

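The 300 brightest circRNA probes of the rat hypothalamus were examined here, chosen from the 14145 circRNA probes of the array. For this choice, log2 signals were normalized between the 6 arrays by quantiles, a step that gives every array the same set of values, and the 6 values of each probe were averaged. The 300 highest means were kept among the 13318 probes marked well above background on all 6 arrays. They made up 2.12% of the circRNA probes. Dropping the background condition gave the same 300 probes. Because the mean signal chose them, their brightness and their height over other probes are a description and no finding. The brightness of a spot also depends on the probe itself, so the order of probes is an order of signal and not of copy number.

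CircRNAs are formed by back-splicing, in which a downstream splice donor of a pre-mRNA is joined to an upstream splice acceptor, so that the exons between them close into a ring. The ring has no free ends and resists exonucleases. Many circRNAs accumulate in the brain, often from genes of neuronal and synaptic function. The hypothalamus with its preoptic area is the center of temperature regulation, and heat acclimation is the adaptation of the body to repeated heat.

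The arrays carried the RNA of 6 male Sprague Dawley rats, 3 of the HA group (heat acclimation) and 3 of the C group (control), with 1 rat on each array. HA rats spent 2 h of each of 30 days in a chamber at 35°C and 55% relative humidity, and C rats were kept at 24°C. Both groups were killed on day 31 under pentobarbital sodium, and the age of the rats is not given in the sources used here. Bulk hypothalamus including the preoptic area was taken, and its RNA was digested with RNase R, an exonuclease that removes linear RNA, before labeling with Cy3. In such bulk tissue, fewer cells of a type and less RNA per cell cannot be told apart. The files give the circRNA probes as manufacturer's numbers and do not pair them with circRNA names, host genes, positions or sequences.

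The summed circRNA signal lay between 5734210 (HA replicate 1) and 10056300 (HA replicate 2) per array. C replicate 2 stood apart from the other 5 arrays over the 300 probes, and values without it are given beside results that it moved. All 6 arrays shared 1 scan date. That they lay on 1 slide was inferred from this and is not given by the header fields read here. The first part of the barcode in each header was taken as the row on the slide. It was 1 for the 3 C arrays and HA replicate 1, and 2 for the remaining HA arrays. Among the 30 markers of hypothalamic, blood and pituitary cells that were listed, only Dlg4, which encodes a scaffold protein of neuronal synapses, was matched to a linear probe. Dlg4 was well above background on 10 of 10 spots on every array, with a median signal between 1257 and 2145. It is a linear transcript read after RNase R. No hypothalamic peptide of the list was matched to a probe. Detection of this single neuronal gene therefore could not check the label of hypothalamus.

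Before normalization between arrays, the 300 probes held between 45.2% and 51.5% of all circRNA signal. Their share was 46.3%, 51.5% and 45.2% on the C arrays and 45.6%, 45.3% and 47.2% on the HA arrays. C replicate 2 held the highest share, and the groups overlapped. HA rats had a mean share of 46.0% ± 0.992 (SD, n = 3), and C rats 47.7% ± 3.37 (SD, n = 3). Without C replicate 2, the C mean was 45.7% ± 0.798 (SD, n = 2), below that of the HA rats, so the direction of the difference rested on this rat. The difference over all rats was smaller than the SD of the C rats, and a two-sided permutation test by exact enumeration gave P = 0.7, where a design of 3 against 3 cannot go below 0.1.

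Within the 300 probes the signal was again uneven. The brightest probe alone held a mean of 2.40% of the circRNA signal, the 10 brightest held 10.4%, the 50 brightest 22.5% and the 100 brightest 31.1%. The 1000 brightest probes of the array held 66.1%. Counting down from the brightest probe of each array, 379, 256 and 407 probes made up 50 percent of the signal on the C arrays, and 394, 398 and 362 on the HA arrays. C replicate 2 needed the fewest probes.

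**Figure D1:**
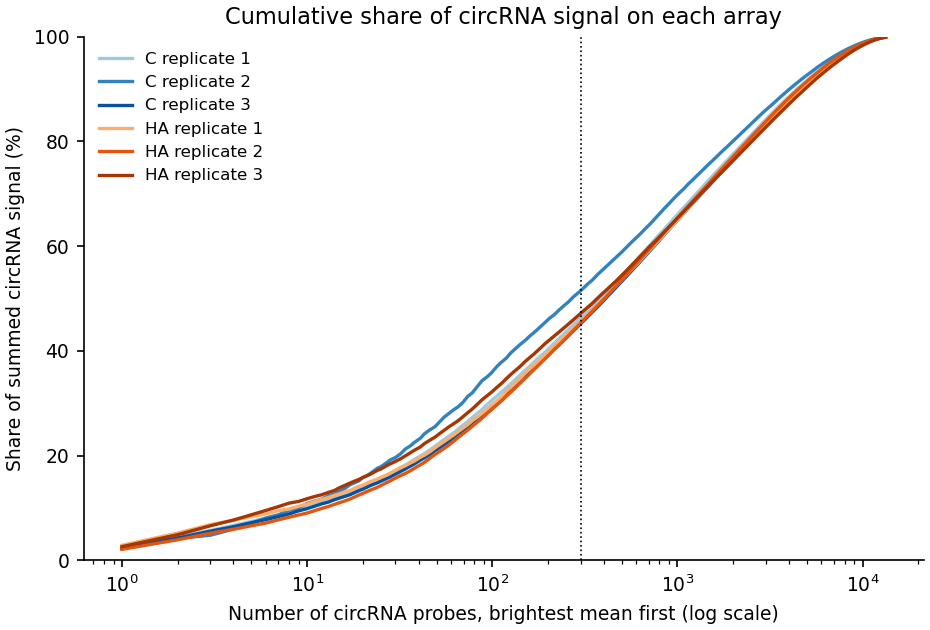
Share of the summed circRNA signal before normalization (y axis, %) held by the brightest probes, added in order of their 6-array mean (x axis, log scale), with 1 line for each array and a dotted line at 300 probes. At 300 probes the arrays lie between 45.2% and 51.5%, and C replicate 2 is the highest.

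The normalized mean of the 300 probes ran from 11.97 to 17.61 on the log2 scale, a 50.1-fold range of signal, with a median of 12.92. The lower limit of the choice was 29.0-fold above the median of all probes well above background (7.11 on the log2 scale). The members were crowded near this limit, and 153 of the 300 had a mean signal within 2-fold of it. The last 2 members were ASCRPR012360 and ASCRPR013086, both with a mean of 11.97. The first 2 probes outside the limit were ASCRPR009088 with 11.96 and ASCRPR004629 with 11.95. These probes differed from each other by less than any of them did between arrays.

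The first 2 places were the same on every array. ASCRPR003948 was the brightest circRNA probe on 6 of 6 arrays, with signals before normalization of 200916, 216330 and 197042 on the C arrays and 165136, 211284 and 217551 on the HA arrays. ASCRPR013743 was the second on 6 of 6 arrays, with 189787, 190319 and 176294 on the C arrays and 133547, 183696 and 190318 on the HA arrays. For both, HA replicate 1, the array with the lowest total signal, was the lowest, and the groups overlapped. Quantile normalization gives the same value to the same rank, so both had an SD of 0 between rats after it, by construction. With each array scaled to its 75th percentile instead, their SD between rats of a group was 0.185 and 0.162 on the log2 scale. These are the 2 members with the smallest SD after quantile normalization, and the 0 says nothing of their biological spread. For the 10 brightest members, the median SD was 0.188 after quantile normalization and 0.356 with the 75th percentile scaling. Over all 300 members these medians were 0.227 and 0.240.

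The next 3 places were shared by 5 arrays and broken on C replicate 2. ASCRPR011276 was in place 3 on 5 arrays and in place 12 on C replicate 2. Its signals before normalization were 98616, 57430 and 115127 on the C arrays and 92413, 124758 and 141214 on the HA arrays. ASCRPR004513 had 81626, 114190 and 73471 on the C arrays and 47336, 77241 and 91706 on the HA arrays. ASCRPR001036 had 66036, 106155 and 68368 on the C arrays and 40293, 65551 and 84293 on the HA arrays. C replicate 2 was thus the lowest array for ASCRPR011276 and the highest for the other two. HA replicate 1 was the lowest array for ASCRPR004513 and ASCRPR001036, before its lower total signal was taken into account.

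Most members kept their place among the 300 brightest from rat to rat. On the C arrays, 286, 258 and 287 members were among the 300 brightest probes of that array, and on the HA arrays 282, 285 and 276. In all, 227 members were there on every array, 41 on 5 arrays and 32 on 4 or fewer. The first 112 members by mean were there on all arrays, and the first to leave was the probe of rank 113. Of the last 100 members, 32 were there on all arrays. Of the 41 members that left on a single array, 20 left on C replicate 2, 13 on HA replicate 3, 5 on HA replicate 2 and 3 on HA replicate 1. The lowest place of any member was 379, 592 and 412 on the C arrays and 776, 403 and 429 on the HA arrays, out of 14145 probes.

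**Figure D2:**
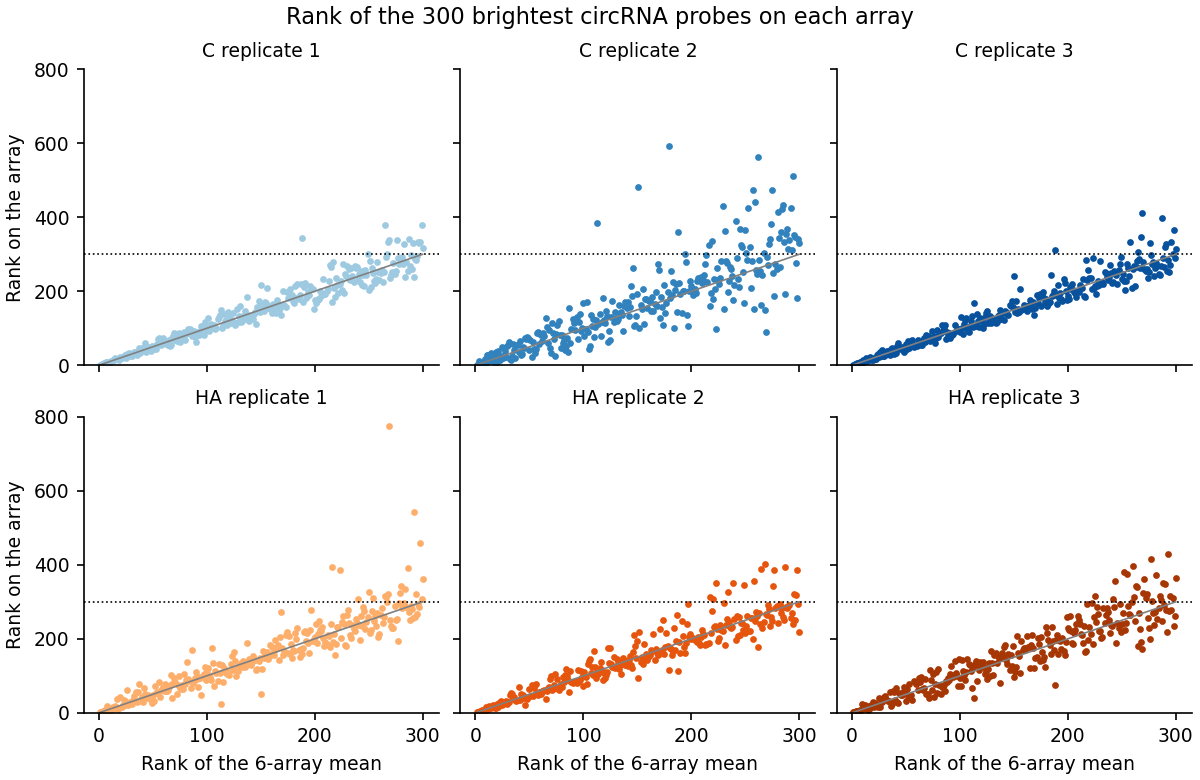
Place of each of the 300 probes on an array (y axis, 1 is the brightest) against its place by the 6-array mean (x axis), in 1 panel for each array, with a grey line of equal places and a dotted line at place 300. The points scatter most on C replicate 2, where 258 of the 300 members lie at or above place 300 in brightness.

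Since the 6 arrays chose the members, the choice was repeated on 5 arrays and the members were looked up on the array left out. Between 294 and 298 of the 300 members were chosen again. Of the 300 probes chosen without an array, 285, 253 and 285 were among the 300 brightest of the C array left out, and 279, 279 and 272 of the HA array left out. All of them were among the 600 brightest of the array left out, except 1 probe on HA replicate 1. Chosen on the 3 HA arrays alone, 295 of the members were kept, and on the 3 C arrays alone 289. The HA and C choices shared 284 probes. The lowest place by the C mean of a probe chosen on the HA arrays was 353, and the lowest place by the HA mean of a probe chosen on the C arrays was 390. The groups thus had most of their brightest probes in common.

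The spread between rats of a group was moderate and close to that of dimmer probes. The median SD of a member within its group was 0.227 on the log2 scale, or 1.17-fold, with quartiles of 0.148 and 0.318. It was 0.215 for the next 300 probes by mean and 0.247 over all 13842 tested circRNA probes. The median SD was 0.209 within the HA group and 0.196 within the C group, where it was 0.0645 between C replicates 1 and 3 alone. Leaving out C replicate 2, the median pooled SD of the members was 0.191. The software's own error estimate of a member spot, 10 percent, corresponds to 0.138 on the log2 scale, and 62 members had an SD below it. From the lowest to the highest of the 6 arrays, the median member moved 1.49-fold. There were 147 members with a range over 1.5-fold and 46 with a range over 2-fold.

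The widest members were mostly set apart by C replicate 2. Of the 46 members with a range over 2-fold, 32 had C replicate 2 as the array farthest from the others, 10 had HA replicate 1, 3 had HA replicate 3 and 1 had HA replicate 2. C replicate 2 was the highest of the 6 arrays for 69 members and the lowest for 109. Set against the mean of the other 5 arrays, it was over 1.5-fold away for 58 members, 27 upward and 31 downward. The same held for 2 members on C replicate 1, 4 on C replicate 3, 19 on HA replicate 1, 12 on HA replicate 2 and 14 on HA replicate 3. Dimmer probes were away on C replicate 2 too, with 19.3% of the members and 16.7% of all probes well above background more than 1.5-fold from the other arrays. On HA replicate 3 these shares were 4.67% and 11.5%, so it stood apart more over all probes than over the members. On the remaining arrays, the share of all probes was between 1.85% and 6.62%. Over the members, the SD between a pair of arrays was 0.104 for C replicates 1 and 3 and between 0.326 and 0.417 for the 5 pairs with C replicate 2. The closest pair between the groups, C replicate 3 and HA replicate 2, had 0.136. Repeated spots of 14 linear probes on the same array had a median SD between 0.047 and 0.069. This spread within an array leaves out that between arrays. By their labels, C replicates 1 and 3 are separate samples, and they were counted as such.

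**Figure D3:**
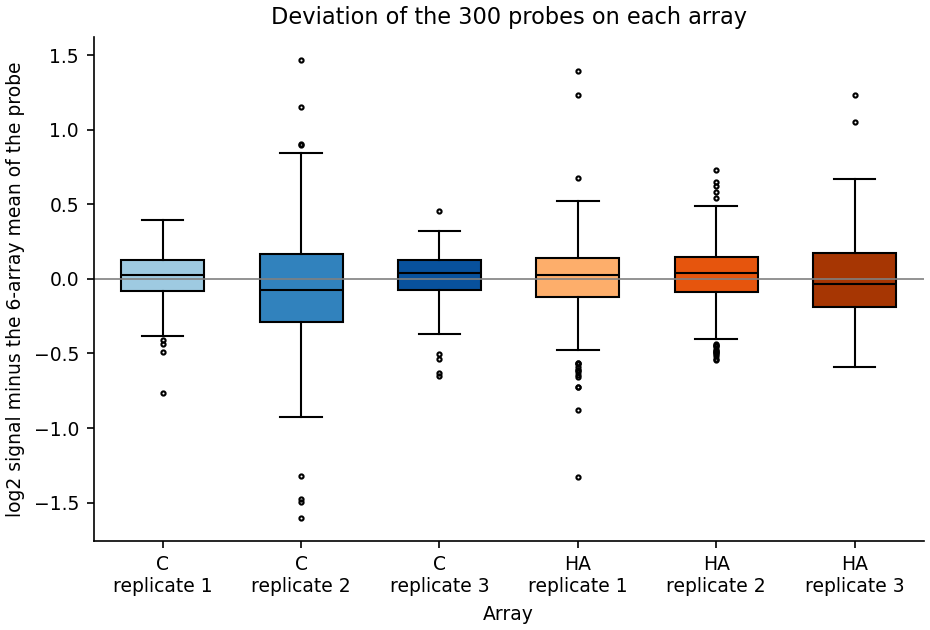
Deviation of the 300 probes from their own 6-array mean (y axis, log2) on each array (x axis). Boxes span the quartiles with the median as a line, whiskers reach 1.5 box lengths and points lie beyond. The SD of the deviations is 0.408 on C replicate 2 and between 0.157 and 0.270 on the other arrays.

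The main axis of variation of the members was not the group. Their first principal component held 57.3% of the variance and set C replicate 2 (6.88) apart from HA replicate 3 (1.64) and the other arrays (between -2.90 and -1.11). The second component held 20.6% and set HA replicate 3 (-4.33) apart. On it the C arrays lay between 0.962 and 1.64 and HA replicates 1 and 2 at 0.929 and -0.514, so the groups did not overlap there, but HA replicate 1 lay next to C replicate 3. Pearson's r across the 300 members, a description over probes of the same arrays, averaged 0.931 between HA arrays, 0.923 between C arrays and 0.926 between the groups. Without C replicate 2 the mean between the groups was 0.955, and C replicates 1 and 3, the only C pair left, had 0.990. Over all tested probes, the lowest r of any pair of arrays was 0.963.

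The largest spread of any member belonged to ASCRPR010902 (rank 269), with an SD of 1.04 on the log2 scale. Its normalized values were 11.87, 13.61 and 11.64 on the C arrays and 10.81, 12.16 and 12.76 on the HA arrays. C replicate 2 was the highest and HA replicate 1 the lowest, and the groups overlapped. The software marked its spot as an outlier on 4 of 6 arrays, which were all 4 outlier spots among the 1800 spots of the members. The fit left these spots out and rested on C replicate 2 and HA replicate 3 alone, with a log2 fold change of -0.85 (adjusted P = 0.921, limma). With 1 spot left in each group, its error is borrowed from the other probes and does not measure its own spread. With all spots kept, the log2 fold change was -0.46. The next largest SD, 0.683, belonged to ASCRPR000684, described with the comparison of the groups.

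The comparison of HA with C asked whether 30 days of daily heat changed the brightest circRNA signals of the hypothalamus. The choice averaged the same 6 values and did not use their difference between the groups, although a large difference can carry a probe over the limit. The comparison was fitted with limma over the 13842 circRNA probes well above background on at least 3 arrays that kept an unflagged spot in each group. Past a fold change over 1.5 and P under 0.05, 5 of the 300 members were higher in HA and 0 were lower. These 5 were 1.67% of the members, against a background of 2.67% of all tested probes. The background was 1.59% in the higher direction and 1.08% in the lower one. In fits on the median spot signal, uncorrected or with normexp, the members' share lay above that of all tested probes. With P under 0.05 alone in the main fit, 6 members (2.0%) passed against 4.72% of all tested probes. For 10 members, 1 of the group means lay below the limit of the choice, and 7 of these were higher and 3 lower in HA. Their difference is bound up with the choice, and 1 of the 5, ASCRPR007510, was among them. Of the 290 members with both group means above the limit, 4 (1.38%) passed both limits. After Benjamini-Hochberg adjustment over all tested probes, 0 members had an adjusted P under 0.05 in limma, as did 0 (0%) of all tested probes. The smallest adjusted P was 0.339 among the members and 0.236 among all tested probes.

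The differences of the members were small. Their median log2 fold change was -0.01, beside -0.00466 over all tested probes, and 138 members lay above 0 and 162 below. The median size of the change, regardless of its sign, was 0.109 on the log2 scale for members and 0.156 for all tested probes. For the next 300 probes by mean, which are closer in brightness, it was 0.125. The first 2 members held the same place on every array, so their change was 0 by construction of the quantile normalization. Members 3, 4 and 5 held the same place on all arrays but C replicate 2, so their change came from that array alone. A fold change over 1.5 in either direction was seen for 7 members (2.33%), against 4.52% of all tested probes. The median half-width of the 95 percent interval of a member's log2 fold change was 0.44. For 171 members (57%), the whole interval lay within 1.5-fold in both directions, compared with 41.9% of all tested probes. For the remaining members, a change of 1.5-fold was not excluded by their own interval. HA and C values did not overlap for 17 members, or 5.69% of those without an outlier spot, against 9.96% of such probes among all tested. Of these, 10 were higher and 7 lower in HA, beside 654 higher and 721 lower among all tested probes.

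The balance of directions depended on the scaling. With each array scaled to its 75th percentile, the median log2 fold change was -0.11 for the members and 0.05 for all tested probes, and 72 members lay above 0 and 228 below. Of all calls past both limits, 83.2% were then higher in HA, against 59.5% after quantile normalization. Among members, the calls were then 5 higher and 1 lower, the latter being ASCRPR010902, whose fit rests on 1 spot in each group. Measured within an array, the median member of HA rats lay 4.45 ± 0.058 (SD, n = 3) log2 units above the 75th percentile, and that of C rats 4.51 ± 0.108 (SD, n = 3), or 4.45 ± 0.031 (SD, n = 2) without C replicate 2. This difference was within the SD of the C rats (P = 0.6 by exact permutation, two-sided, with 0.1 the lowest that can be reached).

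**Figure D4:**
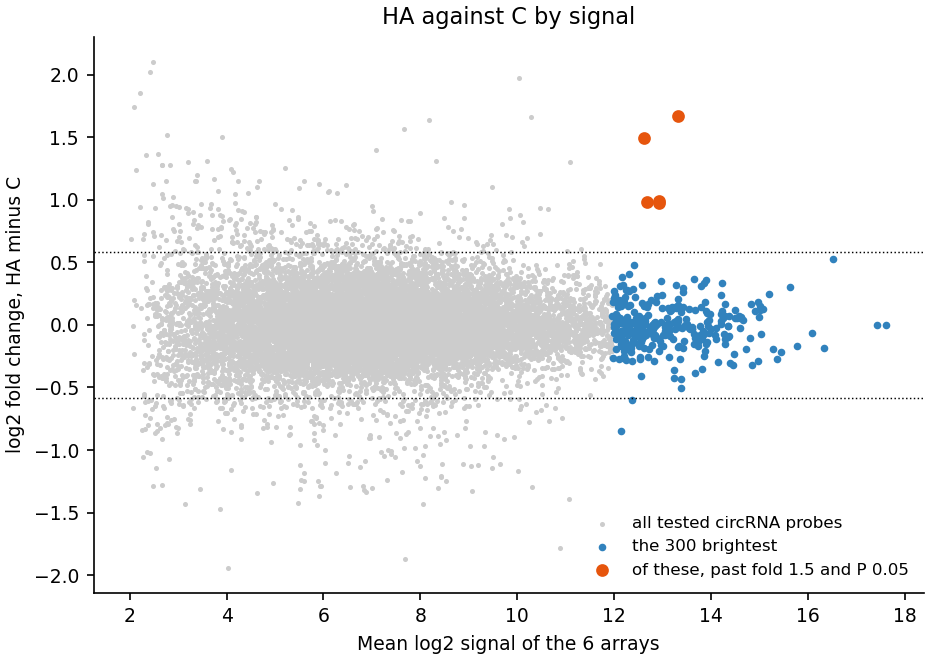
Log2 fold change of HA minus C (y axis) against the mean log2 signal of the 6 arrays (x axis) for all tested circRNA probes (grey), the 300 brightest (blue) and those of them past both limits (orange), with dotted lines at 1.5-fold. The 5 orange points all lie above 0, and all but 7 of the 300 members lie within the dotted lines.

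The member with the largest rise was ASCRPR000684 (rank 113). Its normalized log2 values were 12.96, 11.72 and 12.78 on the C arrays and 14.71, 13.38 and 14.37 on the HA arrays. Every HA rat was above every C rat, with HA replicate 2 the lowest of its group and C replicate 2 the lowest of all. The mean was 3.18-fold higher in HA (log2 fold change 1.67, SE 0.39, adjusted P = 0.707, limma). On HA replicate 1 the probe held place 25 and on C replicate 2 place 385. Without C replicate 2 its log2 fold change was 1.22. It stayed past the fold and P limits in every alternative fit, with an adjusted P between 0.0864 and 1 over these fits, and both of its group means lay above the limit of the choice.

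ASCRPR007510 (rank 188) had the next largest log2 fold change. Its normalized log2 values were 11.84, 11.79 and 11.96 on the C arrays and 12.89, 13.34 and 13.85 on the HA arrays. The C rats lay close together and all HA rats were above them. The mean was 2.82-fold higher in HA (log2 fold change 1.49, SE 0.24). On the C arrays it held places 344, 361 and 311, outside the 300 brightest, and on the HA arrays places 158, 112 and 74. It entered the members through its HA values, as its C mean of 11.87 was below the limit, so its difference is a description and is not counted as support for a rise. The smallest adjusted P among the members was its own. Before normalization its signals were 3843, 3808 and 4308 on the C arrays and 5222, 12703 and 14451 on the HA arrays, where HA replicate 1 had the lowest total signal of all arrays.

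The other 3 members past both limits fell below them in some of the alternative fits. The probe of rank 150 had log2 values of 12.43, 12.57 and 12.29 on the C arrays and 14.16, 12.57 and 13.52 on the HA arrays, so that HA replicate 2 equaled C replicate 2. Its log2 fold change was 0.99 (SE 0.34, adjusted P = 0.921, limma). It fell below the limits without HA replicate 1, without HA replicate 3 and with an unmoderated linear model. The probe of rank 151 had 12.84, 11.44 and 13.02 on the C arrays and 13.29, 13.57 and 13.36 on the HA arrays. The probe of rank 179 had 12.60, 11.18 and 12.78 on the C arrays and 12.98, 13.31 and 13.23 on the HA arrays. For both, C replicate 2 lay far below the other C rats and the groups did not overlap. Their log2 fold changes of 0.97 and 0.98 became 0.45 and 0.47 without C replicate 2, below a fold change of 1.5. Both also fell below the limits without HA replicate 2, without HA replicate 3 and with an unmoderated linear model. The same was true with the row of the slide as a block, described below. The probe of rank 179 did so too in a fit that weighted the arrays. C replicate 2 was the lowest array for 4 of the 5 members past both limits, and its part in these results was measured only by leaving it out.

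**Figure D5:**
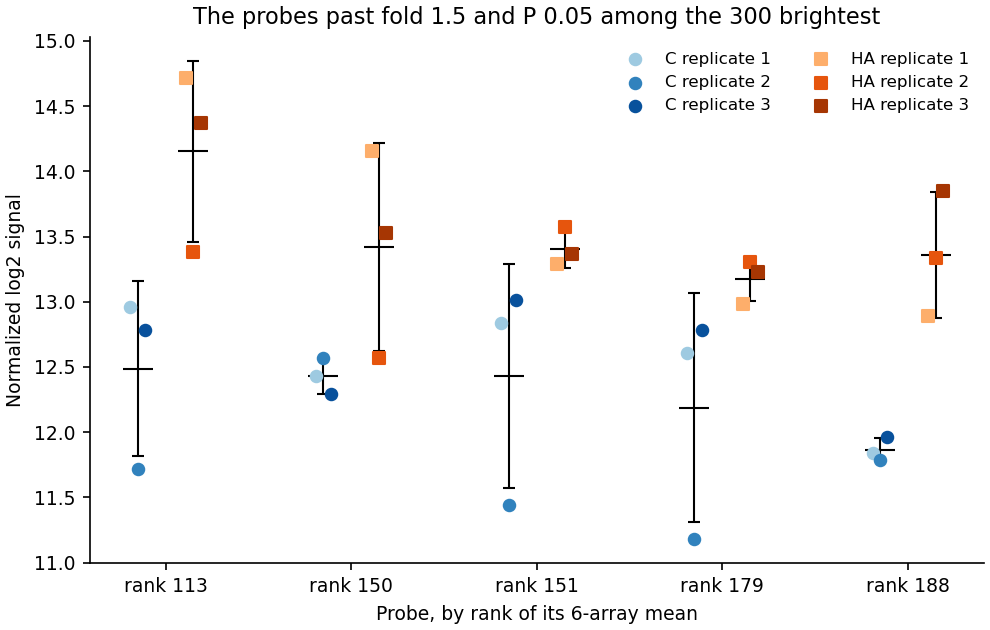
Normalized log2 signal (y axis) of the 5 members past both limits, ordered by rank of their 6-array mean (x axis), with circles for C and squares for HA rats. Horizontal lines are group means and bars are SD (n = 3). The C replicate 2 circles of ranks 113, 151 and 179 lie more than 1 log2 unit below the other C rats, and the groups meet only at rank 150.

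With the row of the slide as a block, a setting chosen after the data had been seen, the difference between the groups rests on row 1, that is, on HA replicate 1 against the 3 C rats. Then 9 members passed both limits, 4 higher and 5 lower, and 3 of the 5 above were among them. In the same fit 4.56% of all tested probes passed, 283 higher and 348 lower. The log2 fold change was 2.23 for ASCRPR000684 and 1.02 for ASCRPR007510. In row 2 there were HA rats only, so no comparison was possible within it.

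The spots of the members were bright without reaching the limit of the scanner. None of the 1800 member spots was saturated, and the brightest spot of an array reached between 19.2% and 28.7% of the saturation value. The median member signal was between 354-fold and 642-fold above its local background. The members were spread over the array, with between 68 and 82 in each quadrant, or 1.92% to 2.31% of the circRNA probes there.

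Members were found next to each other in the manufacturer's numbering. There were 18 pairs of consecutive numbers, which involved 35 members. Of the numbers beside a member, 5.90% were members themselves, whereas 2.12% of all circRNA probes were. The difference between the 2 probes of such a pair had a median SD over the 6 arrays of 0.133 on the log2 scale, compared with 0.310 over all 44850 pairs of members. It lay below the software's error estimate for a single spot in 9 of the 18 pairs, or 50%, compared with 8.19% of all pairs. The SD of the 18 pairs ran from 0.031 to 0.936, and the widest pair held the probe of rank 150, past both limits with a log2 fold change of 0.99, beside a member at -0.36. The sign of the log2 fold change was shared in 11 of the 18 pairs. No such pair lay on adjoining spots of the array. Across all 12558 pairs of consecutive numbers well above background, the level of one probe and that of the next had a Pearson's r of 0.02. These are descriptions without a test, as pairs share probes and arrays, and whether paired numbers belong to the same host gene cannot be read from the files.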

How the data were processed

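Hypothalamic circRNA of 3 HA and 3 C rats was measured on 6 one-color arrays, and samples were grouped by their labels. Per the file headers, spots were quantified in Agilent Feature Extraction 11.0.1.1. The values the authors deposited are linear spot intensities, background-subtracted but not normalized between arrays, with flags for spot quality. Each array had 15701 spots, of which 536 were controls.

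From the deposited intensity, log2 was taken and normalized by quantiles over the circRNA probes with limma 3.58.1 in R 4.3.3. Quantile normalization forces equal distributions, so shares of signal were computed before it. HA and C were compared with lmFit and eBayes (two-sided, no covariates, outlier spots left out). Benjamini-Hochberg adjustment was over the 13842 circRNA probes well above background on at least 3 arrays that kept an unflagged spot in each group. The fit was tested on simulated data. Values per array were compared by exact permutation tests. The number of arrays limits the precision.

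The members and lists were chosen with earlier results of these data known. The probes named were the 5 with the highest mean, the 2 largest and 2 smallest SDs, and 2 on each side of the limit. Added to these were at most 2 rises and 2 falls, the largest without overlap of the groups among members past both limits. For these places, 4 rises and no fall qualified, and the 2 largest rises were named. Further members are given by rank. Alternatives planned on the mean spot intensity were run on the median intensity. No block for scan could be fitted, since all arrays shared 1 scan date. None was fitted for slide, as the slide was inferred to be the same. Names, host genes and sequences of the circRNA probes were not analysed here. Plots were made in matplotlib 3.10.9.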

Additional observations from a re-analysis of the deposited data

How the results depend on the processing

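The number of members past both limits (5) became 2 with an unmoderated linear model and 9 when slide row was a block, which was added after seeing the data; it was between 2 and 7 when each rat was left out in turn, with 3 without C replicate 2, 3 without HA replicate 2 and 2 without HA replicate 3. Over all tested probes the share past both limits was 2.67%, and it became 0.911% unmoderated, 4.56% with the row block and between 1.82% and 5.49% with a rat left out. Under the other alternatives the member count was within 1.5 times of 5. On the median spot signal, the share of all tested probes fell to 1.11% without background correction and to 0.498% with normexp. In each of these fits 6 of the 300 members passed, so the members' share lay above that of all tested probes. This reverses the order of the main fit, which therefore depended on how the spot background was treated. No member had an adjusted P under 0.05 in any of them. The replicate number as a block gave 5 members, and the SE of ASCRPR000684 was 0.20 with it, compared with 0.39 in the main fit. The same numbers did not pair the rats, as the deviations of rats 1, 2 and 3 of both groups correlated at -0.03, -0.20 and 0.06 across all tested probes. Across the members, these correlations were 0.19, -0.51 and -0.53. The median log2 fold change of the members lay between -0.11 and 0.03 over the settings and between -0.03 and 0.02 when a rat was left out, so its sign was not settled. With 100 members in place of 300, the share of signal was 31.1%, 71 were among the 100 brightest of every array, and all 100 were members of the 300. With 1000 members, the share was 66.1% and 773 were among the 1000 brightest of every array. With a rat left out, the share was between 45.9% and 47.2%, the number in the 300 brightest of every array between 227 and 247, the number chosen again between 294 and 298, and the median SD between 0.179 and 0.247. ASCRPR010902, which rested on 1 unflagged spot in each group, had a log2 fold change between -1.35 and -0.46 over the settings.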
